A study of Mus musculus with 32 samples.

Results

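The 10 genes described here belong to the insulin-like growth factor (IGF) system and were followed through 32 mouse liver tumours. They are the 6 high-affinity binding proteins Igfbp1 to Igfbp6, the low-affinity family member Igfbp7, the ligands Igf1 and Igf2, and the receptor Igf1r, and they make up 10 of the 54446 genes counted. The set was chosen by name, with the fall of Igfbp3 under regorafenib and under DC-101 already known from these libraries, and with the instruction to separate liver-derived members by their correlation with albumin (Alb). Comparisons of low dose or high dose regorafenib, or of DC-101, with vehicle therefore describe how the set was selected and carry no p-value for its members. The same holds for high against low dose and low dose against DC-101, whose libraries all took part in that choice. Tests are given for the anti-PD1 and combination groups, whose contrasts the choice did not name. Their vehicle libraries were used in it, and the correlation with Alb was taken over all libraries, theirs included. The combination holds the low dose of regorafenib again, so tests of Igfbp3 there are not independent of the choice. The combination against anti-PD1 is the single comparison without libraries of the contrasts that guided the choice.

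All tumours grew from BNL-MEA cells, a single mouse liver cancer line, placed in the livers of BALB/c mice, so that host liver, vessels and infiltrating cells surrounded the tumour cells. Every treated group has vehicle controls of its own experiment. In batch p112, here the dose experiment, 4 vehicle tumours stand against 3 at a low dose of regorafenib (5 mg/kg/day) and 3 at a high dose (20 mg/kg/day). The drug is taken by mouth and blocks a range of kinases that include VEGF receptors. Batch p103, here the DC-101 experiment, compares 4 vehicle tumours with 3 at the low dose and 3 that received DC-101, which is a blocking antibody to mouse VEGFR2 (800 ug on each of days 1, 3 and 5). Batch p101, here the anti-PD1 experiment, has 3 tumours in each of 4 groups, namely vehicle, low dose, an antibody to the T cell checkpoint PD1, and both agents at once (the combination). The labels give no age for the mice.

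IGF-I is made largely by hepatocytes under the control of growth hormone, and signals through the receptor encoded by Igf1r. In blood, most of it is carried in a complex of IGF-I, IGFBP-3 and the acid-labile subunit, while the other binding proteins hold smaller pools and can restrain or present the ligand locally. In the liver, hepatocytes are the usual source of IGF-I, IGFBP-1 and IGFBP-2, and non-parenchymal cells such as endothelial cells are the usual source of IGFBP-3.

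Each library held between 16.8 M and 27.7 M counts. Levels are given as CPM, the reads of a gene per 1 M reads, on TMM-scaled library totals, and a log2 change is the edgeR estimate with its standard error (SE). Liver transcripts were unevenly represented. Alb ranged over the libraries from 11.01 to 27943 CPM, and vehicle replicates 1 and 4 and DC-101 replicate 1 of the DC-101 experiment stood apart with 13.5, 11.01 and 23.1 CPM. Of 7 liver tumour markers, Mki67 (median 346.5 CPM), Krt18 (49.7 CPM) and Krt8 (45.6 CPM) were well above the other 4, with medians of 3.04 CPM for Epcam, 2.65 CPM for Krt19, 1.501 CPM for Gpc3 and 0.438 CPM for Afp. Fewer cells of a type and less RNA per cell cannot be told apart in such bulk samples.

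Igfbp1 and Igfbp3 are neighbours on mouse chromosome 11 (GRCm38). Igfbp1 lies at chr11:7197782-7202546 on the plus strand and Igfbp3 at chr11:7206086-7213923 on the minus strand, so that their 3′ ends face each other across 3539 bases with 0 coding genes between them. Igfbp2 (chr1:72824503-72852474, plus) and Igfbp5 (chr1:72857932-72874884, minus) form a like pair, 5457 bases apart. The 250 bases before the RefSeq start of Igfbp1 (chr11:7197537-7197786, plus) and of Igfbp3 (chr11:7213924-7214173, minus) are shown because these neighbours had unlike patterns in the tumours. Capitals mark the HNF1 half-site, searched on both strands as GTTAAT and found here as its reverse complement.

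Igfbp1 promoter: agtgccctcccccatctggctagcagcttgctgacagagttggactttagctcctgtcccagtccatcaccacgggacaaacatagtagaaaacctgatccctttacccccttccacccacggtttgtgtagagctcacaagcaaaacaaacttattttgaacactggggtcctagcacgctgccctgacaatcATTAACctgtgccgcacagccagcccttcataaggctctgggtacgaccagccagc

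Igfbp3 promoter: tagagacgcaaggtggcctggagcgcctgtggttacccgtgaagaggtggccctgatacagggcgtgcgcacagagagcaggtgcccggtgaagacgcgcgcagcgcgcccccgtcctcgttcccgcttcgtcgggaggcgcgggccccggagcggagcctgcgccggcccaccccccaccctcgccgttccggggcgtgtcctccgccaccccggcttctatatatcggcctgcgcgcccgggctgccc

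HNF1 is a hepatocyte transcription factor. The half-site occurred 1 time in the Igfbp1 window, 56 bases before the start, and in no window of the other 9 genes, and 6.43% of 32851 mouse promoter windows of the same length hold it. The TATA box was searched as the exact letters TATAAA on both strands. They were found in the window of Igfbp4, 28 bases before the start, and, as the reverse complement TTTATA, in that of Igfbp6, 148 bases before it. Of all windows, 12.4% hold these letters. Variants were not searched, such as the tatatat near the end of the Igfbp3 window. A match is a run of letters and does not show binding.

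Per length of exon, 5 of the 7 binding proteins had higher medians than the ligands and the receptor, and Igfbp2 and Igfbp5 had lower medians than Igf1 and Igf1r. The median over 32 libraries was 169 CPM per kb for Igfbp6 and 165 for Igfbp4, which differed by less than their ranges (34.6 to 444 and 86.6 to 476 CPM per kb). Igfbp7, which binds IGFs weakly, followed at 97.3 CPM per kb, then Igfbp1 at 43.2 and Igfbp3 at 24.7. The receptor gene Igf1r stood at 3.99 CPM per kb, and its highest library (6.15) was still below the lowest library for Igfbp3 (6.96). Igf1 at 3.90, Igfbp2 at 2.04 and Igfbp5 at 1.67 CPM per kb completed the order. Every other pair of neighbours in the order overlapped in range. Igf2, the fetal ligand, had 0 counts in 24 libraries, 1 to 5 counts in the other 8, and more than 3 counts in 1 library only. A count of 0 allows 3 counts, which is a level of 0.108 to 0.179 CPM at these depths, so Igf2 was not detectable in most tumours and was left out of every test. Reads carried no molecular identifiers, and such floors cover counting error only.

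**Figure D1:**
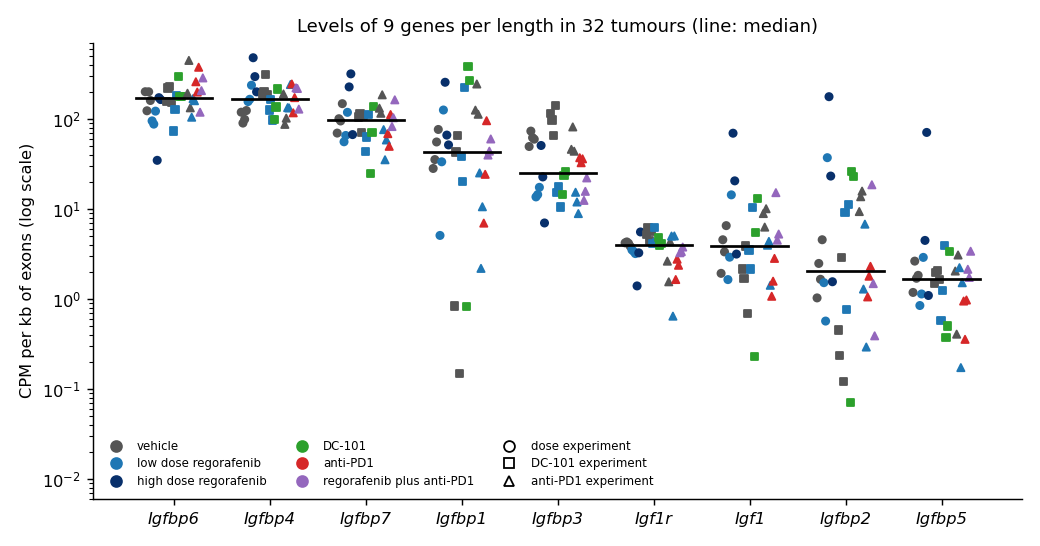
CPM per kb of exon (log axis) for 9 of the 10 genes, with 1 point per library, colours for treatments, shapes for experiments and a line at the median of 32 libraries. Igfbp4 stays between 86.6 and 476, whereas Igfbp1 spreads from 0.147 to 378 and Igfbp2 from 0.0702 to 176 CPM per kb. Igf2 is left out because 24 libraries have 0 counts.

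The genes also differed in how much they varied between tumours. Igf1r spanned 0.642 to 6.15 CPM per kb and Igfbp4 86.6 to 476, while Igf1 spanned 0.231 to 69.1 and Igfbp1 0.147 to 378. The lowest Igfbp1 and Igfbp2 values came from tumours of the DC-101 experiment with almost no Alb.

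Igfbp3 was lower in every low dose tumour than in any vehicle tumour of its own experiment. In the dose experiment the vehicle libraries had 154, 228, 193 and 186 CPM of Igfbp3 and the low dose libraries 42.4, 45.0 and 54.2 CPM. In the DC-101 experiment the vehicle libraries had 356, 304, 203 and 436 CPM of Igfbp3, and the low dose libraries 47.6, 55.6 and 32.8 CPM. In the anti-PD1 experiment the values of Igfbp3 were 143, 254 and 137 CPM with vehicle and 47.8, 37.3 and 27.7 CPM at the low dose. All 9 low dose libraries thus lay below all vehicle libraries of their experiment. Over all genes, 0.447% showed this order in each of the 3 experiments. The log2 change of Igfbp3 was -2.01 (SE 0.53), -2.84 (SE 0.33) and -2.24 (SE 0.32) in the 3 experiments, and -2.37 (SE 0.19) over all of them with the experiment as a term.

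DC-101 gave a like level. Its libraries had 45.3, 73.4 and 81.3 CPM of Igfbp3, all below the vehicle range of that experiment, an order that 8.19% of all genes showed. The log2 change of Igfbp3 against vehicle was -2.28 (SE 0.32). Without the 3 libraries nearly free of Alb, a setting chosen after seeing the data, the log2 change of Igfbp3 in this experiment was -1.71 for DC-101 and -2.48 for the low dose, and over 3 experiments -2.21. Low dose against DC-101 gave a log2 difference for Igfbp3 of -0.55 (SE 0.32) with overlapping libraries. High dose regorafenib gave 158, 70.7 and 21.8 CPM of Igfbp3, a spread wider than in any other treated group. Replicate 1 lay inside the vehicle range and replicate 3 below all low dose libraries, and the log2 change of -1.19 (SE 0.52) became -2.05 without replicate 1 and -0.80 without replicate 3. With the mean log2 CPM of 15 hepatocyte markers as a covariate, the high dose change of Igfbp3 was -2.52. High against low dose gave a log2 difference for Igfbp3 of 0.82 (SE 0.54).

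The anti-PD1 and combination libraries were outside the contrasts that guided the choice, whereas the vehicle libraries they are set against were in them. The combination holds the same drug, so its tests are not independent of that choice. Igfbp3 stood at 116, 101.7 and 112.4 CPM with anti-PD1 alone, below the 3 vehicle libraries (9.2% of all genes showed that order), and at 38.8, 48.9 and 69.0 CPM with the combination. Every combination library was below every anti-PD1 library, an order that 14.3% of all genes showed, and below every vehicle library, as for 8.12% of all genes. The log2 change of Igfbp3 was -0.70 (SE 0.31, edgeR adjusted p = 0.352) for anti-PD1 against vehicle and -1.77 (SE 0.32, edgeR adjusted p = 0.449) for the combination against the same vehicle libraries. For the combination against anti-PD1 it was -1.07 (SE 0.31, edgeR adjusted p = 0.472). These differences were in 1 direction in all 3 combination libraries but did not pass edgeR's correction over 16615 genes. DESeq2 called Igfbp3 for the combination against vehicle (adjusted p = 0.000199), where it called 0.903% of all genes, and did not call it for the combination against anti-PD1 (DESeq2 adjusted p = 0.0668). The change of Igfbp3 with regorafenib was 1.17 log2 units (SE 0.44) smaller in the presence of anti-PD1, a value that contains the low dose contrast on which the gene was chosen and carries no test.

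**Figure D2:**
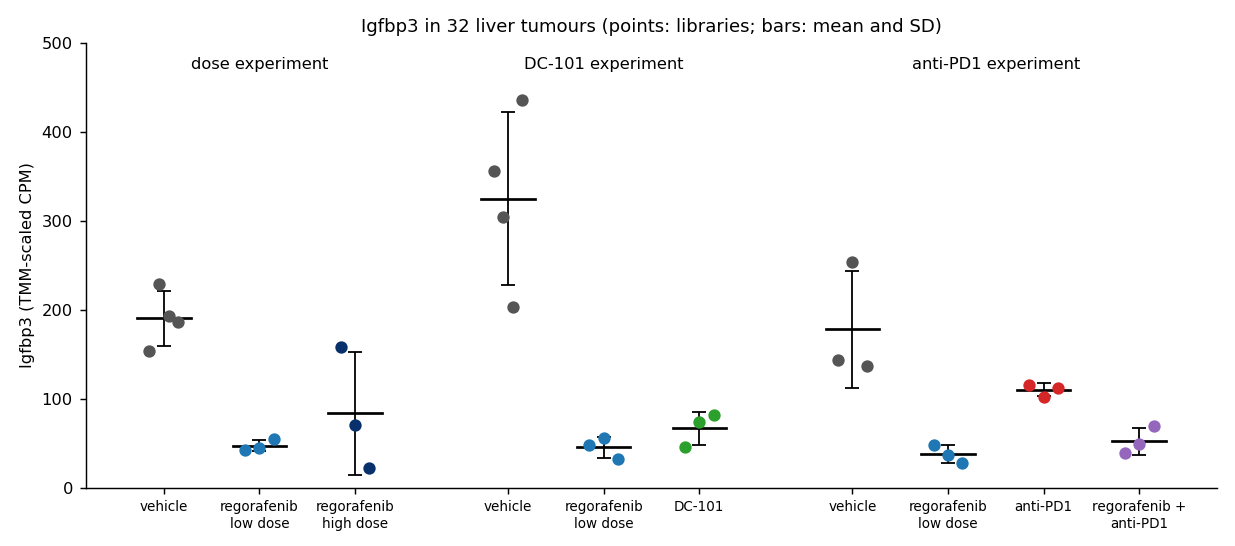
Igfbp3 in TMM-scaled CPM for each library (points) of the 10 groups in 3 experiments, with the group mean and SD. Low dose, DC-101 and combination libraries lie between 27.7 and 81.3 CPM, vehicle libraries between 137 and 436 CPM, and the high dose libraries spread from 21.8 to 158 CPM.

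Igfbp3 correlated with vessel genes. Its r with the mean log2 CPM of 12 endothelial markers was 0.76 over the dose experiment (n = 10), 0.87 over the DC-101 experiment (n = 10), and 0.81 over the anti-PD1 experiment (n = 12). With Alb it was 0.04, -0.55 and 0.33, and on deviations from group means 0.79, -0.16 and 0.02. These correlations are over libraries that share treatments and depth, and they describe the tumours without a test. Over all 32 libraries, after removing the experiment means, the 3 of 15428 genes most like Igfbp3 were Cldn5 (r = 0.91), the claudin of endothelial tight junctions and a member of the endothelial list, Dll4 (r = 0.87), the Notch ligand of sprouting tip cells, and Trp53i11 (r = 0.87). With the group means removed as well, r was 0.64 for Cldn5, 0.67 for Dll4 and 0.45 for Trp53i11. The endothelial list was also lower at the low dose. For the combination against anti-PD1, where Igfbp3 differed by -1.07, 6 of its 12 genes were above and 6 below 0 (median -0.03), with mean scores of 3.59 and 3.62. Against vehicle, 10 of the 12 were below 0 for DC-101 (median -1.30), 11 for the combination (-0.73) and 11 for anti-PD1 (-0.66). In each of these edgeR called 0 of them, and 0% of all genes. At the high dose 10 were below 0 (median -0.40) and 2 were called lower, where 15.6% of all genes were called. In the fit over 3 experiments 11 of the 12 endothelial genes were below 0 at the low dose and 9 were called lower (edgeR, where 1.52% of all genes were called). The median log2 change was -1.22 for the list against 0.02 for all genes. The summed level of the list ranged from 298 to 743 CPM in vehicle libraries and from 125 to 333 CPM in low dose libraries. No endothelial marker was at 0 in any library. With the endothelial score as a covariate the log2 change of Igfbp3 was -1.69 at the low dose over 3 experiments and -1.72 for DC-101, and for the combination against anti-PD1 it was -1.06. Against vehicle it was -0.28 for anti-PD1 (-0.70 without the covariate), -1.34 for the combination (-1.77 without) and -0.91 for the high dose (-1.19 without). The difference of the regorafenib change with and without anti-PD1 was 0.45, against 1.17 without the covariate. Whether vessel content had a part in the level of Igfbp3 was not tested beyond this covariate.

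Members that track Alb were set apart, as the choice of genes asked, with r of at least 0.6 in each experiment as the limit. Igfbp1 (r = 0.76, 0.97 and 0.63), Igfbp2 (0.98, 0.92 and 0.81) and Igf1 (0.96, 0.84 and 0.96) passed, with r given for batches p112, p103 and p101 in turn. Igfbp7, with r = 0.78, 0.16 and 0.55, and Igfbp5, with r = 0.59, 0.22 and 0.19, did not pass, and the value nearest above the limit was 0.63, for Igfbp1 in the anti-PD1 experiment. There the r of Igfbp1 was 0.22 on deviations from group means, 0.46 without the 2 libraries farthest from the median of Alb and 0.48 with the other hepatocyte markers in place of Alb, so that Igfbp1 did not pass under these 3 settings, and its r with the endothelial markers was 0.85. In the dose experiment the r of Igfbp1 with Alb was 0.45 without the 2 farthest libraries. Its rank correlation with Alb was 0.92, 0.93 and 0.69. The mean log2 CPM of the 7 liver tumour markers gave r = 0.86, 0.91 and 0.44 with Igfbp1, 0.68, 0.80 and -0.05 with Igfbp2 and 0.79, 0.93 and 0.13 with Igf1, which was higher than with Alb for Igfbp1 in batch p112 and Igf1 in batch p103. Over the 7 libraries of the DC-101 experiment left without the 3 that had almost no Alb, r was 0.86 for Igfbp1, 0.98 for Igfbp2, 0.89 for Igf1 and -0.50 for Igfbp3. Igfbp4 had r = 0.84 in the dose experiment but -0.01 and -0.45 in the others. The genes most like Igfbp2 over the 32 libraries were Gldc (r = 0.97), of glycine breakdown, Urad (r = 0.97), of urate breakdown, and Rdh16f2 (r = 0.96). For Igf1 they were Dpp4 (r = 0.97), F10 (r = 0.96), the coagulation factor X gene, and Abat (r = 0.96), and for Igfbp1 Apoa4 (r = 0.92), an apolipoprotein, Reln (r = 0.92) and Bco1 (r = 0.91). Among the members, the closest pair was Igfbp2 with Igf1 (r = 0.88), whereas the chromosomal neighbours Igfbp1 and Igfbp3 had r = -0.06 and Igfbp2 and Igfbp5 r = 0.26.

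**Figure D3:**
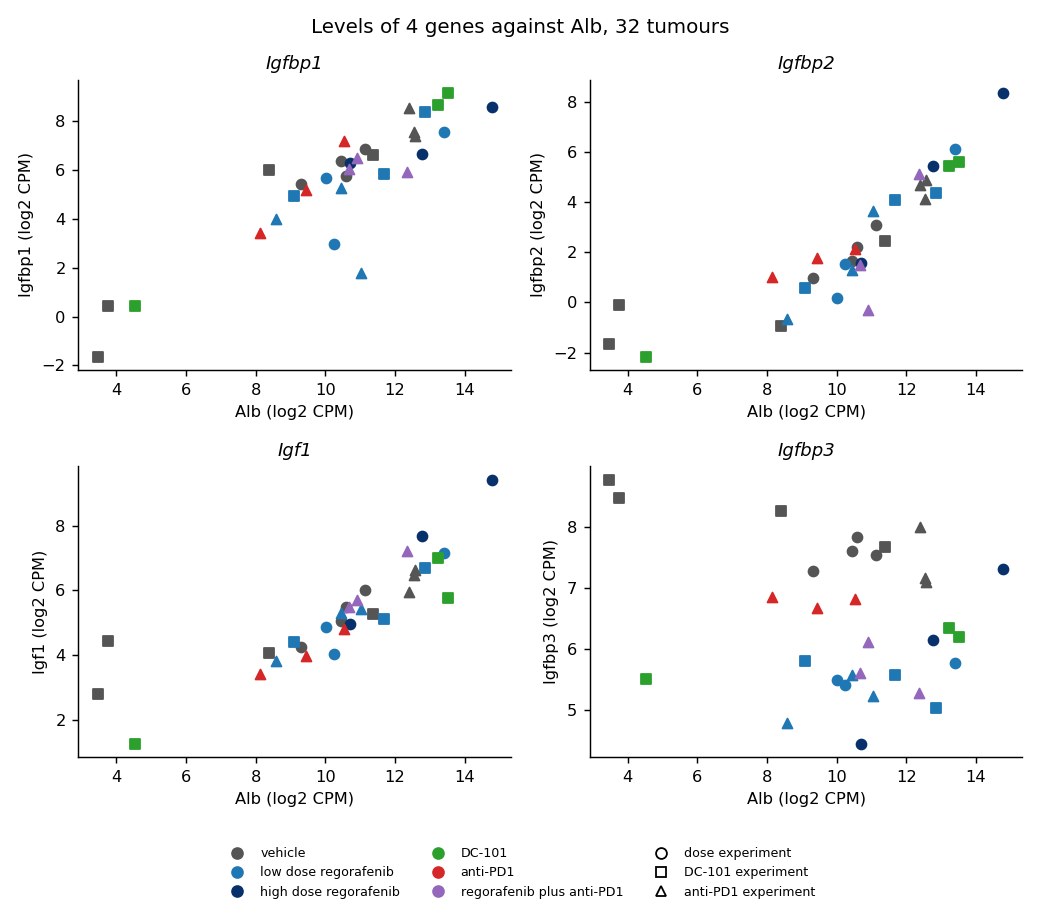
Log2 CPM of Igfbp1, Igfbp2, Igf1 and Igfbp3 against log2 CPM of Alb in 32 libraries, with colours for treatments and shapes for experiments. The first 3 genes climb with Alb, Igfbp3 does not, and 3 tumours of the DC-101 experiment sit apart at the low end of Alb.

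Igfbp2, a carrier made by hepatocytes, had some of the largest log2 changes of the set, with large errors. In the dose experiment Igfbp2 had 1.89, 4.57, 3.05 and 8.38 CPM with vehicle, 2.79, 1.05 and 68.3 CPM at the low dose and 325, 42.7 and 2.86 CPM at the high dose. A single low dose and 2 high dose libraries were far above vehicle, and the others lay within the vehicle range or below it. In the DC-101 experiment Igfbp2 had 0.833, 0.431, 5.35 and 0.225 CPM with vehicle, 16.7, 1.41 and 20.7 CPM at the low dose and 0.130, 47.8 and 42.6 CPM with DC-101. In the anti-PD1 experiment vehicle was the higher group, with 17.2, 25.2 and 29.0 CPM in vehicle libraries and 2.37, 12.5 and 0.539 CPM at the low dose, an order without overlap that 7.36% of all genes showed. The log2 changes of Igfbp2 at the low dose were 2.42 (SE 1.56), 2.93 (SE 1.61) and -2.22 (SE 1.23). The first of these was -1.19 without low dose replicate 3, so the direction in the dose experiment rested on that library. High dose gave 4.79 (SE 1.69) and DC-101 4.15 (SE 1.67) against vehicle. Without the 3 libraries low in Alb, the Igfbp2 values of the DC-101 experiment were 2.17 for the low dose and 3.98 for DC-101. Anti-PD1 alone gave 1.94, 3.30 and 4.24 CPM of Igfbp2, again below every vehicle library, as for 9.2% of all genes (log2 change -2.91, SE 1.27, edgeR adjusted p = 0.344), and the combination gave 34.2, 2.73 and 0.717 CPM, on both sides of the anti-PD1 range. Low dose against DC-101 differed by -1.22 log2 units for Igfbp2 (SE 1.66).

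The 15 hepatocyte markers also varied between the groups, and widely within some of them. Their mean log2 CPM was 6.97 with vehicle, 8.01 at the low dose and 9.999 at the high dose of the dose experiment. It was 3.10 with vehicle, 8.28 at the low dose and 7.24 with DC-101 in batch p103. In batch p101 it was 8.70 with vehicle, 6.67 at the low dose, 6.07 with anti-PD1 and 8.11 with the combination. Single libraries of batch p112 spread from 5.37 to 8.50 with vehicle and from 6.68 to 10.4 at the low dose. Those of batch p103 spread from 0.098 to 7.46 with vehicle and from 2.06 to 10.5 with DC-101. Against vehicle, edgeR called 1 of the 15 markers at the high dose and 0 at the low dose, with DC-101 and with anti-PD1. At an unadjusted p under 0.05 the counts ran from 0 (low dose, batch p112) to 15 (anti-PD1). All 15 had a low dose log2 change above 0 in batches p112 and p103 and below 0 in the anti-PD1 experiment. Against DC-101 all 15 were below 0 at the low dose in the edgeR fit (median -0.37), although their mean score was higher there, with 1 DC-101 library nearly without these transcripts. Their summed level ranged from 25.3 to 14671 CPM in vehicle libraries and from 1295 to 35710 CPM in low dose libraries, and no marker was at 0 in any library. Once this score entered the model, the log2 change of Igfbp2 was -0.71 for the high dose and 0.50 for DC-101, and that of Igf1 was -0.15 and -1.32. The covariate did not act alike throughout, since Igfbp1 at the low dose in batch p101 stood at -3.57 with it and -3.67 without, and Igfbp2 for the combination against anti-PD1 at -2.58 with it and 1.98 without. With the endothelial score as the covariate instead, Igfbp1 at the low dose in batch p101 stood at -1.21. Alb, with which Igfbp2 and Igf1 were set apart, is part of the hepatocyte score. The part of hepatocyte content in these results was not tested further.

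Igfbp1, the insulin-responsive carrier of the liver, varied as much. In the dose experiment it had 42.8, 53.7, 84.3 and 116 CPM with vehicle, 7.72, 50.8 and 191 CPM at the low dose and 388, 100.5 and 78.2 CPM at the high dose, with overlapping groups. In the DC-101 experiment Igfbp1 had 1.27, 65.1, 99.5 and 0.225 CPM with vehicle, 58.1, 30.6 and 337 CPM at the low dose and 1.25, 576 and 405 CPM with DC-101. In the anti-PD1 experiment it had 190, 371 and 171 CPM with vehicle and 38.2, 3.32 and 16.1 CPM at the low dose. The log2 change of Igfbp1 in the DC-101 experiment was 1.77 (SE 1.92) at the low dose, 0.78 without the 3 libraries low in Alb, 0.097 without low dose replicate 3, 3.03 with the replicate block and 3.61 with limma voom. In the anti-PD1 experiment all 3 low dose libraries were below vehicle, an order that 7.36% of all genes showed, with a log2 change of -3.67 (SE 0.96). Anti-PD1 alone gave 10.6, 36.8 and 145 CPM of Igfbp1 and the combination 60.3, 66.6 and 91.0 CPM, also below every vehicle library, as for 9.2% and 8.12% of all genes. For Igfbp1 the log2 change was -1.93 (SE 0.90, edgeR adjusted p = 0.377) for anti-PD1 and -1.75 (SE 0.89, edgeR adjusted p = 0.642) for the combination. With the endothelial score as a covariate these values were -0.21 and 0.04.

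Igf1, the main ligand, was lowest in the anti-PD1 group of its experiment. It had 87.7, 62.0 and 99.2 CPM with vehicle, 39.0, 43.0 and 14.0 CPM at the low dose, 10.6, 15.6 and 27.9 CPM with anti-PD1 and 150, 44.4 and 51.9 CPM with the combination. The anti-PD1 libraries lay below all vehicle and all combination libraries, and 16% of all genes had every combination library above every anti-PD1 library. The log2 change of Igf1 was -2.20 (SE 0.57, edgeR adjusted p = 0.249) for anti-PD1 against vehicle and 2.19 (SE 0.57, edgeR adjusted p = 0.472) for the combination against anti-PD1. DESeq2 called Igf1 in both (adjusted p = 0.0102 and 0.0285), where it called 3.7% and 1.26% of all genes. The hepatocyte score was lowest in the same group, and with it as a covariate these values for Igf1 were -0.54 and 0.71. In the dose experiment Igf1 had 19.01, 44.9, 32.9 and 64.4 CPM with vehicle, 16.2, 28.7 and 142 CPM at the low dose and 685, 202 and 31.1 CPM at the high dose. Its log2 change was 2.92 (SE 1.01) at the high dose, and high dose replicate 3, which had the lowest Alb of its group, stayed within the vehicle range. Reads of Igf1 are less certain, since it overlaps an antisense gene and the strand setting of the counting is not given.

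Igfbp5 and Igfbp7 correlated with mural markers. Igfbp7, a secreted protein of vessel walls and stroma, correlated with the mean log2 CPM of 6 mural markers (pericytes and smooth muscle) at r = 0.92, 0.99 and 0.59 (dose, DC-101 and anti-PD1), and with 9 fibroblast and matrix markers at 0.13, 0.71 and 0.74. With the endothelial markers its r was 0.71, 0.76 and 0.71, which in the anti-PD1 experiment was above that with the mural markers. Its nearest gene was Ednra (r = 0.93), the endothelin receptor of smooth muscle, followed by Tshz2 (r = 0.92) and Lrrc32 (r = 0.92). Reads of Igfbp7 are less certain, since it overlaps Polr2b and an antisense gene on the other strand and the strand setting of the counting is not given. Igfbp5, a matrix-bound binding protein, had r = 0.90, 0.81 and 0.63 with the mural markers, 0.61, 0.55 and 0.32 with the endothelial markers and 0.40, 0.82 and 0.87 with the fibroblast and matrix markers. Cachd1 (r = 0.89), Adamtsl1 (r = 0.85) and Svep1 (r = 0.84) were nearest to it, and Igfbp5 and Igfbp7 correlated with each other at r = 0.80.

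**Figure D4:**
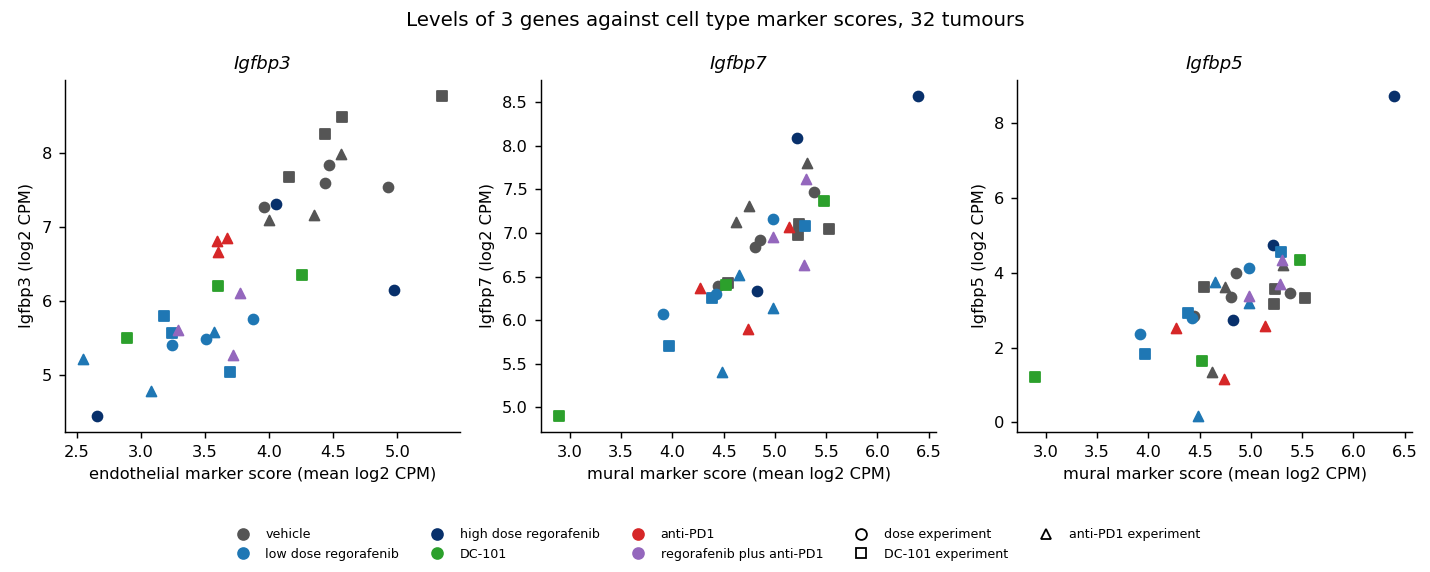
Log2 CPM of Igfbp3 against the endothelial marker score, and of Igfbp7 and Igfbp5 against the mural marker score, in 32 libraries (scores are the mean log2 CPM of each list). Colours mark treatments and shapes mark experiments, and each gene climbs with its score, with 1 high dose library far above the rest for Igfbp5.

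High against low dose regorafenib compares groups that both took part in the choice of genes, and its values are a description. All 9 genes that passed the filter had a log2 difference above 0, from 0.02 for Igf1r to 3.97 for Igfbp5, with a median of 1.18 against 0.07 over all genes. Without high dose replicate 1 the values of Igfbp2 and Igfbp3 were -0.09 and -0.04, and with the hepatocyte covariate -0.13 and -0.20. Cell type markers differed between the doses as well. All 15 hepatocyte markers had a difference above 0 (median 2.29, 0 called by edgeR), 2 of 7 liver tumour markers were called higher, 4 of 6 mural markers had a difference above 0 (median 1.57, 0 called, 3 at an unadjusted p under 0.05), and 6 of 7 macrophage markers were called lower (median -2.20), with a summed macrophage level of 475 to 1139 CPM at the high dose and 3053 to 3564 CPM at the low dose. Their part in the values of the IGF genes was not tested. With edgeR 0 of the 9 passed the threshold, where 4.22% of 16525 genes were called, and 3 had an unadjusted p under 0.05, as did 29.3% of all genes. DESeq2 called 1, where it called 18.5% of all genes, and limma voom 0. Igfbp5 had 26.8, 424 and 6.55 CPM at the high dose against 5.07, 6.80 and 17.3 CPM at the low dose. A single high dose library, replicate 2, was far above the others, and the log2 difference of 3.97 (SE 1.32) was 0.76 without it. The same library had the highest mural score of all 32 (6.40). Igfbp7 had 273, 381 and 80.7 CPM at the high dose and 67.1, 78.9 and 143 CPM at the low dose (log2 difference 1.35, SE 0.53). In batch p101 Igfbp7 had 158, 139 and 223 CPM with vehicle and 82.6, 59.8 and 135 CPM with anti-PD1, without overlap, as for 9.2% of all genes (log2 change -0.91, SE 0.39, edgeR adjusted p = 0.331). The low dose libraries of that batch also lay below every vehicle library for Igfbp7, as for 7.36% of all genes. Its log2 change at the low dose was -0.37, -0.46 and -1.35 in batches p112, p103 and p101.

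Igfbp4, the binding protein cleaved by the protease PAPP-A, was the steadiest of the carriers. At the high dose it had 2103, 1298 and 879 CPM, at the low dose 686, 727 and 1042 CPM and with vehicle 522, 396, 435 and 545 CPM. All high and low dose libraries lay above the vehicle libraries, an order that 1.26% of all genes showed, and the log2 change of Igfbp4 was 1.59 (SE 0.29) at the high dose and 0.79 (SE 0.29) at the low dose. High against low dose gave 0.80 (SE 0.31), with overlapping libraries. In the DC-101 experiment the direction was the other way, with 820, 887, 1375 and 828 CPM of Igfbp4 in vehicle libraries and 554, 729 and 429 CPM at the low dose.

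Without high dose replicate 3, which had the lowest Alb of its group, the log2 differences between the doses were 4.52 for Igfbp5, 1.73 for Igfbp7, 1.21 for Igfbp3 and 0.997 for Igfbp4. These 4 of the 9 genes then passed the threshold in edgeR, in a fit that called 26.3% of all genes, and nothing is read from that count, since both groups took part in the choice.

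Igfbp6 and Igf1r had small log2 changes. Igfbp6, a carrier with a preference for IGF-II, had log2 changes at the low dose of -0.75 (SE 0.46), -0.56 (SE 0.32) and -0.84 (SE 0.46), and over 3 experiments of -0.73 (SE 0.21). In the DC-101 experiment Igfbp6 had 81.5, 142 and 200 CPM at the low dose and 326, 198 and 198 CPM with DC-101, and the difference between these groups was -0.77 (SE 0.34). The genes most like Igfbp6 were Selenom (r = 0.88), Lmo4 and Mmp23 (r = 0.81 each). Igf1r had log2 changes between -0.33 and 0.62 in all comparisons with vehicle or between treatments. Its lowest library, low dose replicate 2 of batch p101, had 10.8 CPM against 83.7 and 83.9 CPM in the other low dose libraries. Tead1, Glg1 (r = 0.96 each) and Cplane1 (r = 0.95) were nearest to Igf1r. Igfbp4 had no close neighbour, with Mon1a (r = 0.78), Gpr155 and Syt3 (r = 0.76 each) at the top.

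**Figure D5:**
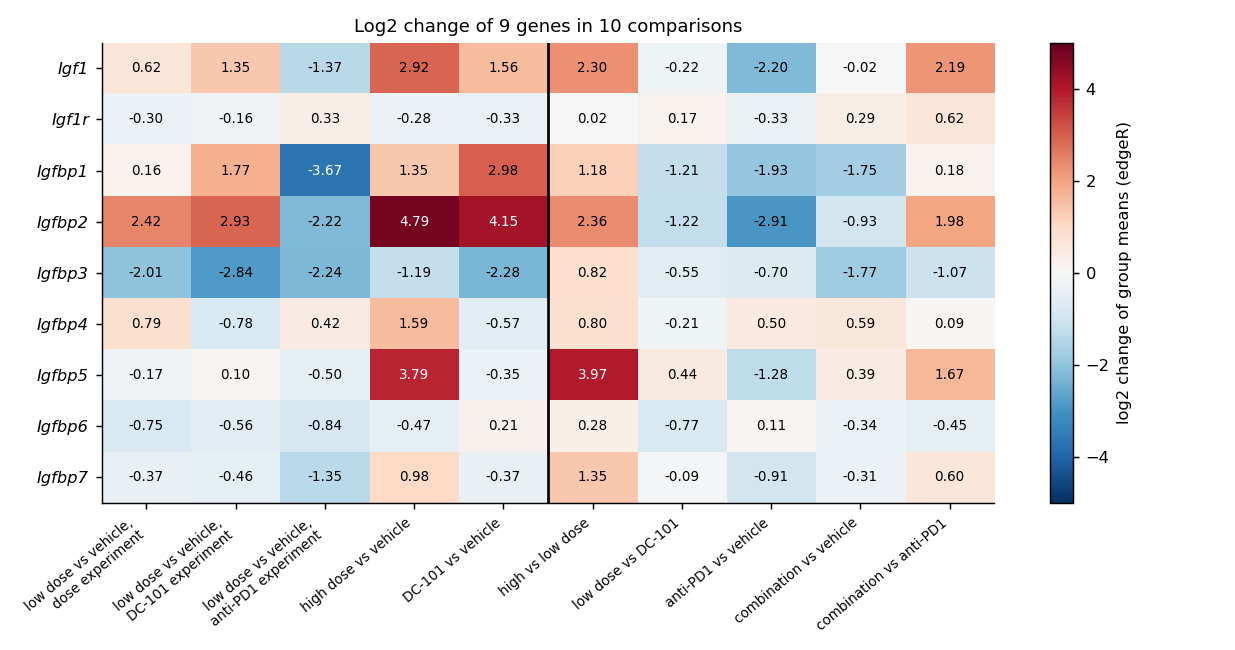
Log2 change (edgeR) of 9 genes in 10 comparisons, as colour and number, with the comparisons that guided the choice of genes on the left of the line and the comparisons between treatments or with anti-PD1 on the right. Igfbp3 is below 0 in each of the 5 columns on the left, from -2.84 to -1.19. At the low dose Igfbp1, Igfbp2, Igfbp4, Igfbp5, Igf1 and Igf1r change sign between experiments.

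Called members can be read only against the share of all genes called. For the comparisons that guided the choice, edgeR called Igfbp3 at the low dose in the DC-101 experiment, where 0.0248% of 16138 genes were called, Igfbp3 at the low dose over 3 experiments, where 1.52% of 17238 genes were called, and Igfbp4 at the high dose, where 15.6% of 16525 genes were called. Without the 3 libraries low in Alb, 0 genes were called at the low dose in the DC-101 experiment (1360 at an unadjusted p under 0.05), Igfbp3 included. Nothing is read from these counts, since the genes were selected on the same contrasts. Low dose against vehicle in batches p112 and p101 and DC-101 against vehicle had 0% of genes called, with 817, 1964 and 2131 genes at an unadjusted p under 0.05. Among the tested comparisons, 0 of 9 members were called by edgeR for anti-PD1 against vehicle and for the combination against vehicle or against anti-PD1, and 0% of all genes were called in each. At an unadjusted p under 0.05 there were 4, 1 and 2 members in these comparisons, beside 13.7%, 8.2% and 8.68% of all genes. DESeq2 called 1 member in each (Igf1, Igfbp3 and Igf1), where it called 3.7%, 0.903% and 1.26% of all genes, and limma voom 0. Low dose against DC-101, the interaction of both agents and the difference of the low dose change between experiments rest on the low dose libraries that guided the choice. With edgeR they had 0 members and 0% of all genes called, with 1, 5 and 4 members at an unadjusted p under 0.05 beside 8.45%, 10.8% and 9.83% of all genes. DESeq2 called 0, 3 and 0 members beside 1.26%, 3.21% and 0.65% of all genes, and nothing is read from them. Comparisons within an experiment share libraries.

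The wider IGF pathway was read from 24 further genes, of which 22 were tested. The list was chosen with earlier results known, the fall of Stc1 under regorafenib among them, so its counts are no independent evidence and its values carry no p-value. Over 3 experiments at the low dose, 0 were called higher and 2 lower (edgeR), where 1.52% of all genes were called. Stc1, stanniocalcin-1, an inhibitor of PAPP-A, fell by 2.45 on the log2 scale (SE 0.28), from a mean of 8.79 ± 3.58 CPM (SD, n = 4) to 1.61 ± 0.40 CPM (n = 3) in batch p112, from 6.13 ± 1.77 to 1.26 ± 0.68 CPM in batch p103 and from 5.93 ± 3.39 to 0.912 ± 0.597 CPM in batch p101. Stc1 had 1.33 ± 0.60 CPM with DC-101, and low dose against DC-101 differed by -0.07 (SE 0.47). Grb10, an adaptor that restrains the insulin and IGF receptors, fell by 1.45 on the log2 scale (SE 0.35) over 3 experiments. Of the 20 fits that left out 1 library, 13 no longer called Grb10, and neither did the fit without the 3 libraries low in Alb.

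At the high dose 2 of the 22 were called higher and 1 lower against vehicle, a share near the 15.6% of all genes called. Igfals, which encodes the acid-labile subunit, rose by 5.39 on the log2 scale (SE 1.48), from 0.962 ± 0.810 to 40.5 ± 47.9 CPM, with high dose libraries between 2.705 and 94.3 CPM. Igfals also followed Alb, at r = 0.97, 0.90 and 0.72. H19, the imprinted non-coding RNA next to Igf2, rose by 1.86 (SE 0.38), from 1.38 ± 0.55 to 5.02 ± 1.30 CPM, and was the single gene of the list called between high and low dose (2.46, SE 0.43), 1 of 22 where 4.22% of all genes were called. Stc1 fell by 2.95 (SE 0.51). Of the 10 fits that left out 1 library, Stc1 stayed called at the high dose in 5, H19 in 3 and Igfals in 2, and leaving out any vehicle library or low dose replicate 1 left 0 of the 3. Between the doses H19 was lost when any 1 of the 3 low dose libraries was left out. H19 had a single high vehicle library in each of the other experiments, at 71.7 and 78.1 CPM. In each of the other 10 comparisons 0 of the 22 genes were called with edgeR, with 1 to 6 at an unadjusted p under 0.05 and 0 to 4 called by DESeq2.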

How the data were processed

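Tumour RNA was sequenced after a stranded mRNA library preparation. Per the labels and the study's methods, the authors trimmed adapters with cutadapt 2.4, aligned to GRCm38 with STAR 2.7.2a and let STAR count reads per Gencode gene. The deposited values are these raw counts, without normalization. Which strand column was taken is not given in the sources used here, so genes with antisense partners are less certain.

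Symbols were matched for 54409 of 54446 genes. Groups and replicate numbers came from the labels. The genes followed and all gene lists were chosen with earlier results of these data known. The rule for naming covers all 10 genes. Of the wider pathway list, genes past the threshold are named (at most 3 in each direction), and for each member the 3 genes with the highest r. Values by library beyond those of Igfbp3 and of the genes with the largest change in a comparison were added after the values were seen.

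One edgeR 4.0.16 model (R 4.3.3) per experiment held its groups, after filterByExpr (minimum count 10, minimum total 15) and TMM scaling. Tests were 2-sided quasi-likelihood F-tests with robust estimation, with Benjamini-Hochberg adjustment over all genes and a threshold of 0.05. The SE is the size of the log2 change divided by the square root of F. Log2 CPM used a prior count of 2. The code was tested on simulated data. Alternatives were DESeq2 1.42.0, limma voom (3.58.1), other scalings and filters, marker score covariates, a replicate block and leaving out each library. The replicate numbers were checked for pairing: deviations from group means correlated above 0.1 in 2 of 9, 4 of 9 and 6 of 18 same-number pairs. Pairs of unlike number were not examined, so these counts cannot decide pairing. Replicate 3 of the DC-101 experiment had r = 0.45, 0.67 and 0.63 between its groups. Numbers were not treated as pairs in the main models. Libraries of a group differed by far more than counting noise (chi-square per degree of freedom 14.0 to 918.5 over 36 pairs). The labels do not state whether tumours of a group came from separate mice, and the p-values then measure the spread between these samples. Exon lengths and positions come from a Gencode annotation of the same build, and promoter windows from RefSeq (GRCm38.p6), which held all 10 genes.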

Additional observations from a re-analysis of the deposited data

Results flagged for a closer look

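Igfbp4 in vehicle replicate 3 of the DC-101 experiment stood apart, at 1375 CPM against 820 to 887 CPM in the other 3 vehicle libraries. Its gap to the nearest library was 0.847 of the group's log2 range, above Dixon's 95% limit for 4 samples, which chance exceeds in about 1 of 20 checks. It was the single case among 18 checks, of each tested gene in the vehicle groups of batches p112 and p103, and checks of a group share its libraries.

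For Igfbp1, Igfbp2 and Igf1, each low dose library lay below the vehicle mean log2 CPM in batch p101 and above it in batch p103. For Igfbp4 each low dose library lay above that mean in batches p112 and p101, and below it in batch p103. These genes are listed because they met this pattern, and the share of all genes that meet it was not counted. The edgeR F-test of the difference between experiments had an adjusted p of 0.500 for Igfbp1, 0.492 for Igfbp2, 0.420 for Igfbp4 and 0.504 for Igf1. It is built from the low dose contrasts that guided the choice of genes, so these values are given as a description and nothing is read from them. The hepatocyte score of the vehicle groups was 3.10 in batch p103 and 8.70 in batch p101, and its part in these results was not tested.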

How the results depend on the processing

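With DESeq2 the members called were 1 for high against low dose, 1 for anti-PD1 against vehicle, 1 for the combination against vehicle, 1 for the combination against anti-PD1 and 3 for the interaction, where edgeR called 0. Leaving out 1 library gave 0 to 4 for high against low dose. With the replicate block 0 members were called in the comparisons between treatments and those of anti-PD1, and whether a shared number marks a pair is not known. The genes with r of at least 0.6 with Alb in each experiment were 3, and 2 (Igfbp2 and Igf1) on deviations from group means, without the 2 libraries farthest from the median of Alb, or with other hepatocyte markers in place of Alb. The log2 change of Igfbp3 changed sign in 2 of 262 values under alternatives, Igf1 in 23 and Igf1r in 20. The cause of these moves was not tested.

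Of the wider pathway list, DESeq2 called 1 gene at the low dose in batch p112, 4 in batch p103, 3 in batch p101 and 4 over 3 experiments, 10 at the high dose, 9 between the doses, 2 for DC-101, and 1 each for anti-PD1, the combination against vehicle, the combination against anti-PD1 and the interaction. DESeq2 called 0.514%, 6.8%, 2.56% and 6.16% of all genes at the low dose in the same order, 31.9% at the high dose, 18.5% between the doses, 2.31% for DC-101 and 0.903% to 3.7% in the last 4. At the high dose 1 was called with total count scaling, with no low count filter and with at least 10 counts in every library, 10 with the endothelial covariate, 0 with the replicate block, 0 with only the groups compared and 0 to 11 with 1 library left out. Between the doses 0 were called with total count scaling, the replicate block or only the groups compared, 2 with either marker covariate and 0 to 9 with 1 library left out. Over 3 experiments 1 was called with total count scaling, no filter, at least 10 counts, the replicate block or the hepatocyte covariate, 0 with the endothelial covariate, and 1 to 3 with 1 library left out. At the low dose in batch p112, 1 was called with only the groups compared. Leaving out the 3 libraries with least Alb, added after seeing the data, left 1 over 3 experiments and 0 members for low dose against DC-101 and for the difference between experiments.

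Counts over all genes depended on the tool. DESeq2 called 5275 genes at the high dose, 3059 between the doses and 1061 at the low dose over 3 experiments, and limma voom 1349, 782 and 310, against 2582, 697 and 262 with edgeR. Where edgeR called 0 or 4, DESeq2 called 85 to 1097 and limma voom 0 or 4. Over the settings other than leaving out 1 library, the counts ran from 1 to 5275 at the high dose, 0 to 3059 between the doses, 0 to 1061 over 3 experiments and 0 to 1097 at the low dose in batch p103. With 1 library left out, edgeR called 0 to 12 genes at the low dose in batch p103, 15 to 7030 genes at the high dose and 62 to 4488 between the doses, and without the 3 libraries with least Alb 124 at the low dose over 3 experiments and 0 in batch p103. With 3 or 4 tumours a group, changes of the genes that correlate with Alb have wide errors, and Igf2 is below the depth of most libraries.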
